A study of Mus musculus with 46 samples.

Results

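The Lin28 and let-7 target axis was followed through 8 mouse genes, taken by symbol: Lin28a, Lin28b, Trim71, Hmga1, Hmga2, Igf2bp1, Igf2bp2 and Igf2bp3. All 8 are among the 37108 genes of the gene table and among the 35976 genes obtained by summing the transcript table by symbol. All 8 passed the filter on low values, as did 16842 genes in the time course and 13312 genes in the iPSC comparison. The cells were mouse embryonic fibroblasts (MEF) reprogrammed towards induced pluripotent stem cells (iPSC) with retroviral Oct4 and native Nanog (NanogWT, labelled Nanog+Oct4) or with retroviral Oct4 and NanogBiD (labelled NanogN70+Oct4). In NanogBiD an N-terminal stretch of SS18 that binds BRG1, the ATPase of the BAF chromatin remodelling complex, is joined to Nanog. Every transduced group therefore carried exogenous Oct4 and a form of Nanog, and neither combination is a mock control. The MEF came from mice with an Oct4-GFP reporter (OG2), and day 0 (D0) followed the rounds of infection. Cells were first kept in iCD3 medium and were moved to N2B27 + 2iL medium at about D7. Each combination was sampled with 2 replicates on each of 8 days (D0, D1 and D3, then D5, D7 and D8, and last D10 and D12), except that NanogBiD has 1 library at D8. A further 12 libraries came from iPSC, 6 per combination. The references were 2 untransduced MEF libraries and 1 library of mouse embryonic stem cells (mES). The mES sample is labelled OG2-mES, so it also came from mice with the Oct4-GFP reporter. The labels do not say whether replicates were separate infections, so p-values measure the spread between these libraries, which may be technical.

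The let-7 family consists of small RNAs that become abundant as cells differentiate and that lower the output of messages carrying matches to their shared seed in the 3′ UTR. Lin28a and Lin28b are RNA-binding proteins that bind let-7 precursors and block their maturation, while the Lin28 messages are themselves let-7 targets, so that Lin28 and let-7 restrain each other. Trim71, Hmga2 and the Igf2bp genes are classic oncofetal let-7 targets, high in early embryos and low in most adult tissues.

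The mature let-7 sequences are shown because the sites below are matches to them. RefSeq on GRCm38.p6 gave 5p forms for 11 let-7 and miR-98 loci of 9 names, each 22 bases long, and in all of them bases 2 to 8 (the seed, in capitals) were the same GAGGUAG.
mmu-let-7a-5p: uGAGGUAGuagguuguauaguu
mmu-let-7d-5p: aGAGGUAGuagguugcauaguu
mmu-let-7e-5p: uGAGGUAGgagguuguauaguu
mmu-let-7g-5p: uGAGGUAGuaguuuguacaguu
mmu-let-7i-5p: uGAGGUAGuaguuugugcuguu
mmu-miR-98-5p: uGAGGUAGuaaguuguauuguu
The let-7a locus shown lies on chromosome 13 at 48538239 to 48538260 on the minus strand. The forms differ only outside the seed, and let-7d differs from let-7a also in its 5′ base.

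The 3′ UTR of each gene (the longest per gene in GENCODE vM21 on GRCm38, read on the transcript strand) was searched for CTACCTC, the match to the seed, and for CTACCTCA, which adds the A opposite the 5′ base of the miRNA. All 8 genes held at least 1 match, 21 in all, against 1895 of 21007 genes (9.02%) genome-wide. Lin28b, Trim71, Hmga2 and Igf2bp1 held 4 each, Lin28a held 2, and Hmga1, Igf2bp2 and Igf2bp3 held 1 each. At least 3 matches were found in 32 genes (0.152%) of the genome. Among genes with a 3′ UTR of like length, 0.0891% had as many matches as Hmga2 and 0.158% as many as Lin28b, but 13.3% as many as Igf2bp3. These genes were listed as let-7 targets, so the count describes them and is not a test. The match nearest the stop codon of each gene is given here with the bases before it, with the match to the seed in capitals.
Lin28a, chr4:134005189-134005210 (minus strand): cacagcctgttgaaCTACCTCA
Lin28b, chr10:45381022-45381043 (minus strand): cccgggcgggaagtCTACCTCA
Trim71, chr9:114512472-114512493 (minus strand): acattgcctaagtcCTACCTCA
Hmga1, chr17:27563278-27563299 (plus strand): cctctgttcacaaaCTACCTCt
Hmga2, chr10:120364224-120364245 (minus strand): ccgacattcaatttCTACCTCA
Igf2bp1, chr11:95961778-95961799 (minus strand): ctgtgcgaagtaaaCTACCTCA
Igf2bp2, chr16:22059473-22059494 (minus strand): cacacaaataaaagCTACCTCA
Igf2bp3, chr6:49086787-49086808 (minus strand): gcatttttactcaaCTACCTCA
All 8 lie in 3′ UTR exons of protein-coding genes, and only the Hmga1 site is on the plus strand. Hmga1 has the 7-base match alone, and the other 7 sites shown end in the A of the 8-base match. A match is a description of sequence and not evidence of binding.

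**Figure D1:**
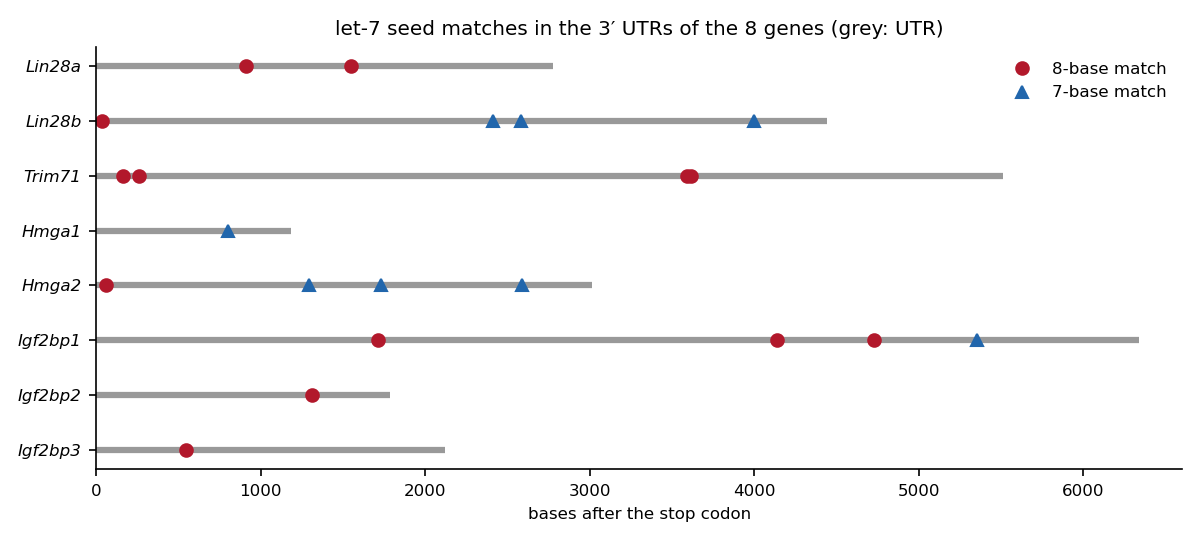
Matches to the let-7 seed along the 3′ UTR of the 8 genes. The x axis is the number of bases after the stop codon, grey bars are the longest annotated 3′ UTR, red circles are 8-base and blue triangles 7-base matches. Hmga2 and Lin28b each carry an 8-base match that starts within the opening 58 bases, whereas the single Hmga1 match starts 801 bases after the stop codon.

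The tables hold no read totals, so relative depth was computed from the steps between low values. Up to D7 it ran from 0.872 to 1.1 over 20 libraries. From D8 on it ran from 0.811 to 1.02 over the 5 NanogBiD libraries and from 1.85 to 3.18 over the 6 NanogWT libraries. These late NanogWT depths are less certain, because the commonest ratio of low values stood out less. In NanogWT D10 replicate 2 that ratio held 170 genes, against 168 at the highest other ratio. In NanogWT D7 replicate 1 the numbers were 333 and 211. Depth and combination cannot be told apart on those later days. The depth of the iPSC libraries is unknown. Replicates of a group correlated at r = 0.961 to 0.990 across genes over 16 pairs in the gene table. The labels were checked against markers. The summed FPKM of 6 fibroblast markers was 4012 to 4205 in MEF and 11.4 in mES, and that of 7 pluripotency markers not carried by the vectors was 0.337 to 1.41 in MEF and 3520 in mES. In these bulk libraries a change in the share of cells that carry an RNA and a change in RNA per cell cannot be told apart.

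No gene of the axis was called between NanogBiD and NanogWT cells up to D3, and all 8 were higher with NanogBiD at D10. Lin28a was higher first, at D5, and Lin28b, Trim71, Hmga2, Igf2bp1 and Igf2bp3 followed at D7. Calls needed a limma adjusted p under 0.05 and a difference of at least 2-fold on the log2(FPKM + 1) scale, on which low values are compressed. The counts at D0, D1 and D3 were 0 of 8, when 0.760%, 1.33% and 3.70% of all tested genes were called (limma; 2668, 2266 and 3847 of 16842 genes had an unadjusted p under 0.05). At D5, 1 of 8 was called, against 6.48% of all genes. At D7 there were 6 of 8 genes higher with NanogBiD, against 10.4% of all genes called in either direction. All 8 were higher at D10, against 27.8% of all genes called. By D12 the count was 7 of 8, against 23.4%, with Hmga2 under the fold limit. None of the 8 was called lower with NanogBiD on any day. Lin28b, which is in the counts at D7, D10 and D12, passed the filter on low values only through NanogBiD libraries. The median log2 difference of the 8 genes was 1.51 at D7 and 2.00 at D10, while the medians over all tested genes were 0.08 and 0.10.

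**Figure D2:**
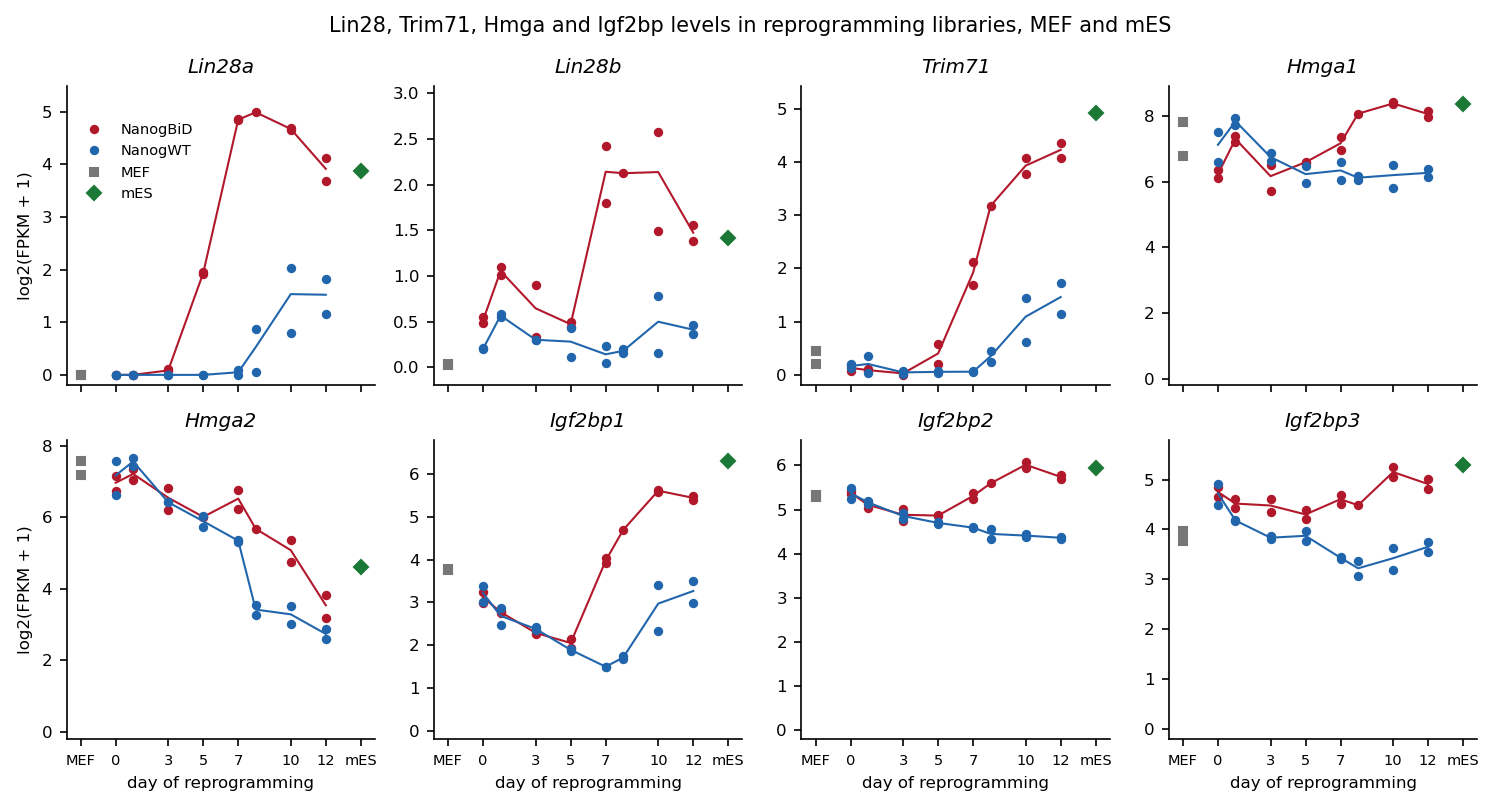
Levels of the 8 genes by day as log2(FPKM + 1), with NanogBiD in red, NanogWT in blue, MEF as grey squares on the left and mES as a green diamond on the right of each panel. Points are libraries and lines join the log2 of the group mean FPKM plus 1. Lin28a and Trim71 start near 0 in both combinations and separate at D5 to D7, while Hmga2 falls from high MEF levels in both.

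Lin28a (chromosome 4, 134003330 to 134019196, GRCm38.p6), the form that recruits a uridylating enzyme to let-7 precursors, was listed at 0 in both MEF libraries and in every library of D0 and D1. With NanogBiD it was at 0.0746 and 0.0468 FPKM at D3, 2.78 and 2.86 at D5, 27.7 and 28.2 at D7, and 30.8 in the single D8 library. The D10 libraries were at 24.2 and 24.9 and the D12 libraries at 16.4 and 11.8. The gene thus went from near 0 at D3 to its highest level in the single D8 library, with replicates close to each other at D5 and D7. With NanogWT it was listed at 0 in both libraries of D3 and D5 and in 1 of the D7 libraries, the other D7 library being at 0.0704. It then stood at 0.0448 and 0.841 at D8, 0.730 and 3.07 at D10, and 1.23 and 2.52 at D12, so no NanogWT library reached the level of either NanogBiD library of its own day from D3 on. mES stood at 13.6 FPKM, close to the NanogBiD mean of 14.1 ± 3.28 (SD, n = 2) at D12. NanogBiD means of D7, D8 and D10 were 205%, 227% and 181% of mES, and the NanogWT mean at D12 was 13.8%. The log2 difference between the combinations was 1.94 (SE 0.29, adjusted p = 8.45e-05) at D5, 4.80 (SE 0.29, adjusted p = 5.86e-10) at D7, 3.27 (SE 0.29) at D10 and 2.41 (SE 0.29) at D12. The fit takes 1 spread per gene over all 16 groups, and Lin28a was at or near 0 in many of them. Its SE can therefore understate the spread at D10, where NanogWT stood at 0.730 and 3.07 FPKM. Because NanogWT was at or near 0, the D5 and D7 values depend on the added pseudocount, and with 0.1 in place of 1 they were 4.87 and 7.75.

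Lin28b (chromosome 10, 45376617 to 45486314), the paralogue that is mostly nuclear, was the lowest of the 8 genes in mES, at 1.67 FPKM. MEF libraries were at 0.0252 and 0.0164. NanogBiD libraries were at 0.394 and 0.463 at D0, 1.15 and 1.01 at D1 and 0.412 and 0.359 at D5, then at 2.47 and 4.35 at D7. They stood at 3.36 at D8, 1.82 and 4.98 at D10, and 1.61 and 1.95 at D12. NanogWT libraries never exceeded 0.713, reached in 1 of the D10 libraries, and the D7 libraries were at 0.0323 and 0.172. Lin28b thus passed the filter of 1 FPKM only through NanogBiD libraries, and its calls as higher with NanogBiD are not independent of that filter. NanogBiD libraries lay above NanogWT libraries on every day from D0 on, but NanogBiD replicates spread widely. NanogWT was at 0.156 and 0.146 at D0 and at 0.4995 and 0.459 at D1. At D3 NanogBiD was at 0.254 and 0.8725, against 0.229 and 0.233 with NanogWT. No difference was called up to D5. On the log2 scale it was 0.31 (SE 0.27) at D0 and 0.49 (SE 0.27) at D1. The log2 difference was 1.97 (SE 0.27, adjusted p = 1.87e-05) at D7, 1.57 (SE 0.27, adjusted p = 6.15e-05) at D10 and 1.06 (SE 0.27, adjusted p = 0.0029) at D12. Without the NanogBiD library that stood at 4.98 the D10 value was 1.03, and without the D12 library at 1.95 the D12 value was 0.97 and was not called. The locus overlaps the predicted gene Gm51827, and whether strand was used in counting is not stated.

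Trim71 (chromosome 9, 114511268 to 114564369), a ubiquitin ligase and RNA-binding protein of early embryos, was at 0.152 and 0.357 FPKM in MEF. It stayed under 0.3 in every library up to D3 in both combinations. With NanogBiD it stood at 0.155 and 0.484 at D5, 3.36 and 2.23 at D7, 8.04 at D8, 15.9 and 12.6 at D10, and 19.6 and 15.9 at D12. Trim71 was thus later than Lin28a and had no decline in its means between D10 and D12. With NanogWT it was at 0.0364 and 0.0450 at D7, then 0.539 and 1.72 at D10, with 1.2 and 2.31 at D12. mES was at 29.5, of which the D12 means were 60.2% with NanogBiD and 5.95% with NanogWT. The log2 difference was 1.85 (SE 0.23, adjusted p = 6.02e-06) at D7, 2.89 (SE 0.23, adjusted p = 6.13e-09) at D10 and 2.79 (SE 0.23, adjusted p = 9.39e-09) at D12, with no overlap between the combinations on these days.

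The 2 Hmga genes, which encode AT-hook proteins that bend DNA and help to shape chromatin, went different ways. Hmga2 (chromosome 10, 120361268 to 120476469) was the member with the highest levels in MEF relative to mES, at 145 and 191 FPKM against 23.2. With NanogBiD it was at 106 and 142 at D0, 63.9 and 63.1 at D5, 74.7 and 107 at D7, 50.2 at D8, 25.7 and 40.0 at D10, and 8.04 and 13.2 at D12. With NanogWT it was at 98.1 and 188 at D0, 64.8 and 51.8 at D5, 38.9 and 40.4 at D7, 10.7 and 8.68 at D8, 7.07 and 10.5 at D10, and 5.03 and 6.32 at D12. Levels fell with either combination, but NanogBiD libraries were above NanogWT libraries at D7 and D10, by 1.16 (SE 0.30, adjusted p = 0.00642) and 1.78 (SE 0.30, adjusted p = 4.61e-05) on the log2 scale. At D12 the difference of 0.77 (SE 0.30, adjusted p = 0.0377) was under the fold limit. At that day both combinations lay below mES. Without the NanogBiD library at 107 FPKM the D7 difference was 0.90 and was not called (adjusted p = 0.0922). Hmga2 overlaps 5 other annotated loci, among them Mir763, so its counts could include their reads.

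Hmga1 (chromosome 17, 27556574 to 27563672) was abundant throughout. NanogBiD libraries were at 80.2 and 68.3 FPKM at D0, 96.2 and 95.0 at D5, 163 and 124 at D7, 268 at D8, 341 and 326 at D10, and 283 and 249 at D12. NanogWT libraries were at 181 and 96.8 at D0, 60.7 and 87.8 at D5, 95.8 and 64.9 at D7, then 55.5 and 89.7 at D10, with 83.0 and 69.5 at D12. The NanogBiD libraries went from below to above the NanogWT libraries of the same day between D0 and D5, and the D10 mean of 333 equalled 101% of mES. The log2 difference was -0.83 (SE 0.29, adjusted p = 0.153) at D0, 0.84 (SE 0.29, adjusted p = 0.0354) at D7, 2.22 (SE 0.29, adjusted p = 2.44e-06) at D10 and 1.79 (SE 0.29, adjusted p = 3.74e-05) at D12. The NanogWT replicates of D0 lay far apart, and without the lower of them the D0 difference was -1.28 and was called. The value of this gene is uncertain, because the row Hmga1b, a copy elsewhere in the genome, moved with it over all 34 libraries (r = 0.9998) at 1.19 to 1.26 times its level, and reads could be split between them.

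The Igf2bp genes encode proteins that bind and stabilise messages, among them that of Igf2. Igf2bp1 (chromosome 11, 95957163 to 96005944) was at 12.5 and 12.8 FPKM in MEF and 78.1 in mES. With NanogBiD it was at 6.89 and 8.47 at D0, 2.83 and 3.45 at D5, 14.02 and 15.4 at D7, 24.9 at D8, 47.0 and 48.8 at D10, and 41.1 and 43.9 at D12. With NanogWT it was at 7.08 and 9.48 at D0, 2.63 and 2.78 at D5, 1.82 and 1.81 at D7, then 4.05 and 9.62 at D10, with 6.94 and 10.3 at D12. Every D5 library lay below every D0 library, and the NanogBiD libraries of D7, D10 and D12 lay above all NanogWT libraries of the same day. The log2 difference was 2.48 (SE 0.24, adjusted p = 2.46e-07) at D7 and 2.74 (SE 0.24, adjusted p = 1.80e-08) at D10.

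Igf2bp2 (chromosome 16, 22059009 to 22163299) and Igf2bp3 (chromosome 6, 49085218 to 49215469) moved over a narrower range. Igf2bp2 had group means between 19.6 and 63.7 FPKM, and NanogBiD libraries were at 40.5 and 36.8 against 23.3 and 22.9 with NanogWT at D7. At D10 they were at 66.8 and 60.6 against 19.8 and 20.7, and at D12 at 54.4 and 50.4 against 19.2 and 19.9. The combinations did not overlap from D7 on, with log2 differences of 0.72 (SE 0.12, adjusted p = 0.000141), under the fold limit, at the first of these days and of 1.60 (SE 0.12) and 1.38 (SE 0.12) at D10 and D12. Igf2bp3 stood at 21.9 and 24.9 FPKM with NanogBiD against 9.64 and 9.96 with NanogWT at D7, and at 32.2 and 36.9 against 8.14 and 11.3 at D10. Its log2 difference was 0.64 (SE 0.17, adjusted p = 0.0187) at D3, 1.17 (SE 0.17, adjusted p = 3.02e-05) at D7, 1.74 (SE 0.17, adjusted p = 6.42e-08) at D10 and 1.26 (SE 0.17, adjusted p = 4.43e-06) at D12. Igf2bp3 alone among the 8 had an adjusted p under 0.05 at D3, but that difference was under 2-fold. NanogBiD means at D10 were 105% and 89.9% of mES for Igf2bp2 and Igf2bp3, against 33.4% and 25.4% with NanogWT. Igf2bp3 overlaps Malsu1 and 2 other annotated loci.

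**Figure D3:**
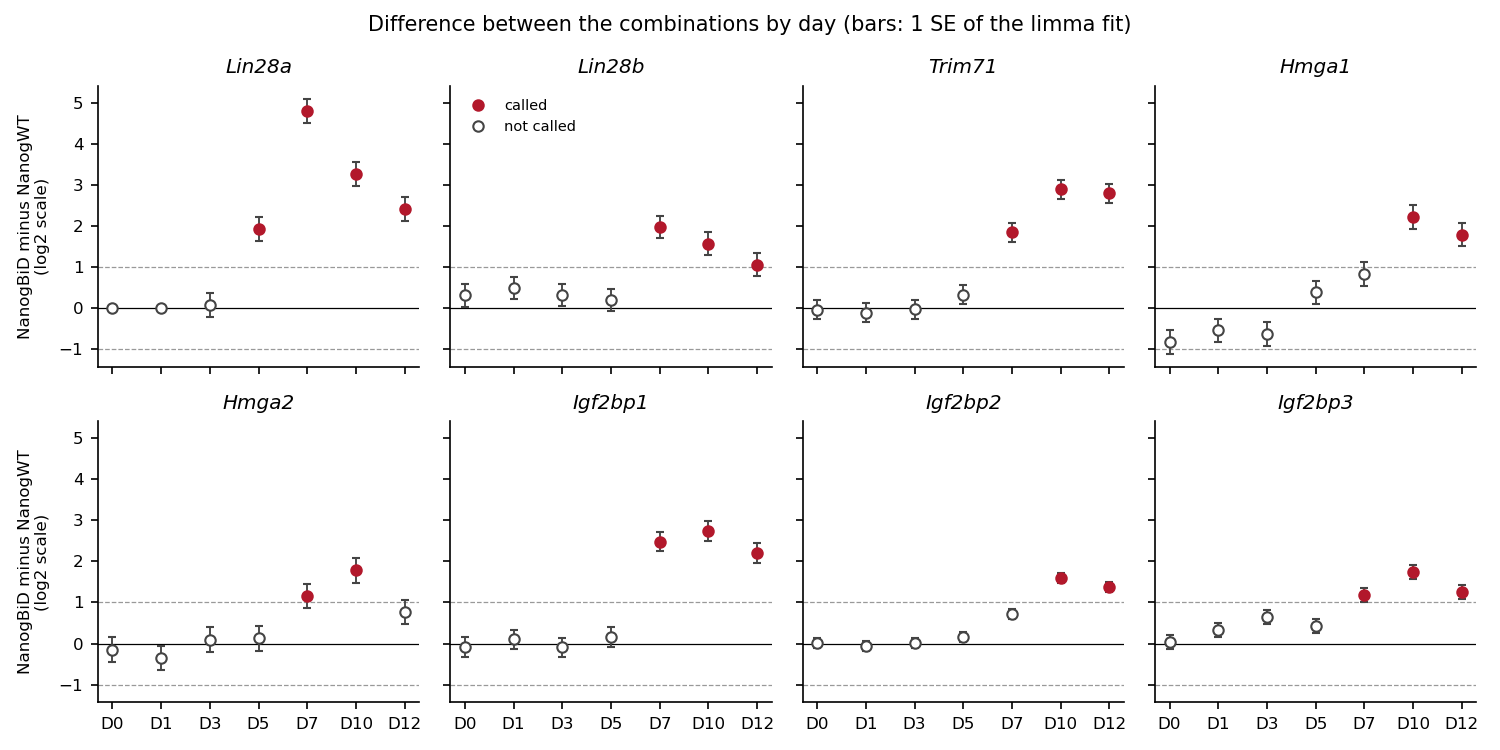
Difference between NanogBiD and NanogWT in each gene by day on the log2(FPKM + 1) scale, with bars of 1 SE from the limma fit. Filled red points were called and open points were not, and dashed lines mark a 2-fold difference. All 8 genes lie above the upper line at D10, and none is called before Lin28a at D5.

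Pluripotency markers also differed between the combinations, and were apart before most of the 8 genes were called. At D3 the summed level of 7 markers was 6.36 to 10.8 FPKM with NanogBiD and 0.668 to 0.790 with NanogWT. None of the 8 genes was called on that day. At D5 the marker sum was 32.85 to 33.1 against 1.40 to 2.11. The summed level of 7 markers was 94.8 to 105 FPKM with NanogBiD and 2.80 to 3.56 with NanogWT at D7, and 1188 to 2142 against 158 to 214 at D12, with none at 0 in any library of D12. Fibroblast markers summed to 125 to 219 with NanogBiD and 291 to 337 with NanogWT at D7, and to 124 to 194 against 913 to 1285 at D12, with 1 of 6 at 0 in each NanogBiD library of that day. At D5, when Lin28a alone was called, 4 neural markers (Sox1, Pax6, Nes and Tubb3) summed to 348 to 370.1 with NanogBiD and 70.9 to 90.8 with NanogWT. The part that cell composition has in the levels of the 8 genes was not tested.

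Within each combination, the members split by D7. With NanogBiD, 3 of 8 rose from D0 to D7, against 18.8% of all genes called, namely Lin28a by 4.85 (SE 0.29), Lin28b by 1.59 (SE 0.27) and Trim71 by 1.78 (SE 0.23) on the log2 scale, and none fell past the limits. With NanogWT, 3 of 8 fell, against 17.7% of all genes. Hmga2 fell by 1.75 (SE 0.30), Igf2bp1 fell by 1.71 (SE 0.24) and Igf2bp3 fell by 1.27 (SE 0.17). Igf2bp2 changed by -0.78 (SE 0.12, adjusted p = 2.89e-05) with NanogWT, under the fold limit. The interaction, the difference between the combinations in the change from D0 to D7, was called for 7 of 8 genes, against 10.1% of all genes. Its value was 4.80 (SE 0.41) for Lin28a, 2.57 (SE 0.34) for Igf2bp1, 1.88 (SE 0.33) for Trim71, 1.67 (SE 0.41) for Hmga1, 1.66 (SE 0.38) for Lin28b, 1.30 (SE 0.42) for Hmga2 and 1.13 (SE 0.24) for Igf2bp3, and 0.70 (SE 0.17) for Igf2bp2, under the limit. The Hmga2 interaction had an adjusted p of 0.0415 and passed 0.05 under several alternatives, with 0.0980 after rescaling to a common total and 0.182 when only the compared groups were fitted. It was also not called without either NanogWT library of D7, without NanogWT D0 replicate 2, without NanogBiD D0 replicate 1 or without NanogBiD D7 replicate 2. The Hmga1 interaction lost its call without NanogWT D0 replicate 1 or NanogWT D7 replicate 2. That of Igf2bp3 lost its call without NanogWT D0 replicate 2, where its log2 value was 0.92, under the fold limit.

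From D0 to D12, 4 genes rose and 1 fell with NanogBiD, against 34.7% of all genes called. The log2 changes were 4.09 (SE 0.23) for Trim71, 3.90 (SE 0.29) for Lin28a, 2.33 (SE 0.24) for Igf2bp1 and 1.83 (SE 0.29) for Hmga1, and Hmga2 fell by 3.45 (SE 0.30). With NanogWT, 2 genes rose and 3 fell, against 16.2% of all genes. Lin28a rose by 1.49 (SE 0.29) and Trim71 by 1.27 (SE 0.23), while Hmga2 fell by 4.37 (SE 0.30), Igf2bp2 fell by 1.01 (SE 0.12) and Igf2bp3 fell by 1.06 (SE 0.17). Igf2bp2 and Igf2bp3 sat at the fold limit and were not called without NanogWT D12 replicate 1 or NanogWT D0 replicate 2, and the count was 3 in place of 5 in the former case. The Trim71 change was 0.97 without NanogWT D12 replicate 2 and 0.84 after quantile normalization, not called in either case. The interaction was called for 6 of 8 genes, against 23.9% of all genes, and not for Lin28b (0.75, SE 0.38, adjusted p = 0.135) or Hmga2 (0.92, SE 0.42, adjusted p = 0.0967). The comparisons with D0 share their D0 libraries. The median log2 change of all tested genes from D0 to D12 with NanogBiD was 0.34 and was -0.01 after quantile normalization, with 4138 genes higher and 1712 lower against 2564 and 2543, and it was 0.19 and -0.05 with NanogWT, with 2055 higher and 666 lower against 1337 and 1076. At D7 the counts were 2135 higher and 1036 lower with NanogBiD, against 1386 and 1497 after quantile normalization, and 2018 and 959 with NanogWT, against 1545 and 1292. The direction of each called change of the 8 genes was the same under both scalings.

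In established iPSC the medians of Lin28a, Trim71, Hmga1, Hmga2 and Igf2bp1 lay above the mES sample, and those of Lin28b, Igf2bp2 and Igf2bp3 below it. These values are transcript FPKM summed by gene, normalised apart from the gene table, so levels are compared only among these 15 libraries. Against MEF, 5 of 8 genes were higher in iPSC and 1 was lower, against 40.7% of all genes called. Lin28a, Lin28b and Trim71 were under 1 FPKM in both MEF libraries and passed the filter only through iPSC. Lin28a was at 0 in both MEF libraries and ranged from 9.90 to 62.9 with a median of 37.3 over 12 iPSC, against 15.4 in mES. Trim71 was at 0.114 and 0.277 in MEF and between 23.4 and 41.8 with a median of 33.4 in iPSC, against 22.2 in mES. Igf2bp1 was at 10.8 and 11.7 in MEF and between 64.4 and 100.1 with a median of 80.5 in iPSC. These groups did not overlap, with log2 differences of 4.98 (SE 0.55, adjusted p = 4.37e-06), 4.76 (SE 0.19, adjusted p = 6.12e-10) and 2.76 (SE 0.12, adjusted p = 1.45e-09).

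Hmga2 was at 116 and 156 FPKM in MEF and between 15.6 and 42.4 with a median of 36.3 in iPSC, against 18.5 in mES, a log2 difference of -1.99 (SE 0.27, adjusted p = 2.84e-05). Lin28b was between 0.423 and 5.10 in iPSC with a median of 0.972, against 0.0152 and 0.0161 in MEF and 1.71 in mES. Its difference of 1.00 (SE 0.38, adjusted p = 0.0302) lay at the fold limit and was not called without either MEF library, nor without any 1 of 5 iPSC samples (0.90 to 1.00). Hmga1 was between 108 and 261 in iPSC against 49.1 and 96.8 in MEF, a difference of 1.26 (SE 0.31, adjusted p = 0.00266) that was 0.78 and not called without the lower MEF library (adjusted p = 0.105). Hmga1b was not analysed here in these samples. Igf2bp2 (0.42, SE 0.15, adjusted p = 0.0193) and Igf2bp3 (0.96, SE 0.20, adjusted p = 0.000784) were under the fold limit. The median over all genes was 0.22, and 0.03 after rescaling to a common total, under which no called difference of the 8 changed direction.

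Between NanogBiD and NanogWT iPSC, 0 of 8 genes were called, with 0% of all genes called (limma; 227 of 13312 genes had an unadjusted p under 0.05). Lin28a was at 34.2 ± 19.5 FPKM (SD, n = 6) in NanogBiD iPSC and 34.6 ± 15.2 (SD, n = 6) in NanogWT iPSC, a log2 difference of -0.17 (SE 0.43). Differences of the other 7 genes lay between -0.23 (SE 0.29, Lin28b) and 0.25 (SE 0.21, Hmga2). The spread within a combination was wide for the Lin28 genes. Lin28a in the iPSC1 line of NanogBiD stood at 62.9 in 4#, 9.90 in 8# and 14.4 in 9#, and in that of NanogWT at 38.8 in 1#, 12.0 in 1#-2, 57.0 in 2# and 26.8 in 3#. In iPSC2 it lay between 31.3 and 42.9 in all 5 samples. The labels 1# and 1#-2 may share a clone. Passage numbers in the column names differ between the lines, and the effects of line and passage cannot be told apart. Within NanogWT iPSC1, 1#-2 and 2# were of a later passage than 1# and 3#. The sample NanogBiD iPSC1 9# had fibroblast markers summing to 1030 FPKM, against 2.21 to 321 in the other 11 iPSC. Without it 7 of 8 genes were called against MEF, Igf2bp3 being added at 1.01 (SE 0.19), and the difference between the combinations in Lin28a was -0.04.

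**Figure D4:**
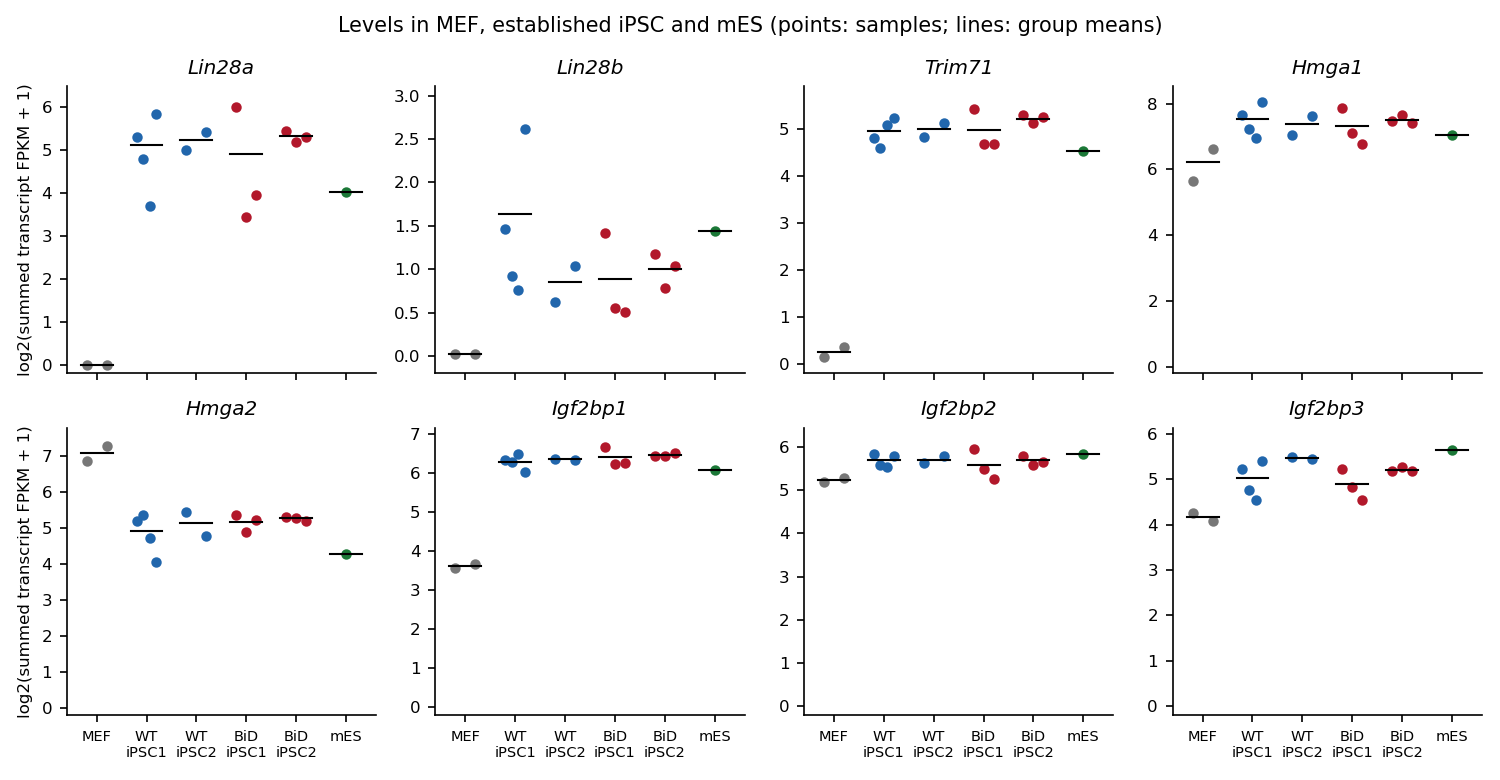
Levels of the 8 genes in MEF (grey), NanogWT iPSC (blue), NanogBiD iPSC (red) and mES (green) as log2 of the summed transcript FPKM plus 1. Points are samples, and lines are the log2 of the group mean plus 1. Lin28a spans 9.90 to 62.9 FPKM in iPSC1 and 31.3 to 42.9 in iPSC2, and Hmga2 is the gene whose MEF samples lie above all iPSC.

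The transcript table also separates the forms of each gene. Hmga2 has 2 forms in it, and the reference form NM_010441.2 held 97.4% and 98.5% of the gene in MEF and 91.7% in mES. In the 7 iPSC1 samples it held between 84.6% and 99.5%. In iPSC2 the predicted form XM_006513251.3 held 78.8%, 80.4% and 53.0% in the 3 NanogBiD samples and 74.5% in NanogWT 5#, but 2.97% in NanogWT 6#. The share was thus high in 4 of 5 iPSC2 samples and in no other sample, while the gene total of those 4 lay between 35.8 and 42.4 FPKM, against 15.6 to 40.6 in the other 8 iPSC. The form was assigned by the authors' quantification from short reads, and no test was made. Lin28b has 8 forms, of which 3 reached 1 FPKM, and the form XM_011243187.2 held all of the gene in NanogBiD iPSC1 4# and none in iPSC1 9#. Trim71, Igf2bp1 and Igf2bp2 have 1 form each.

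**Figure D5:**
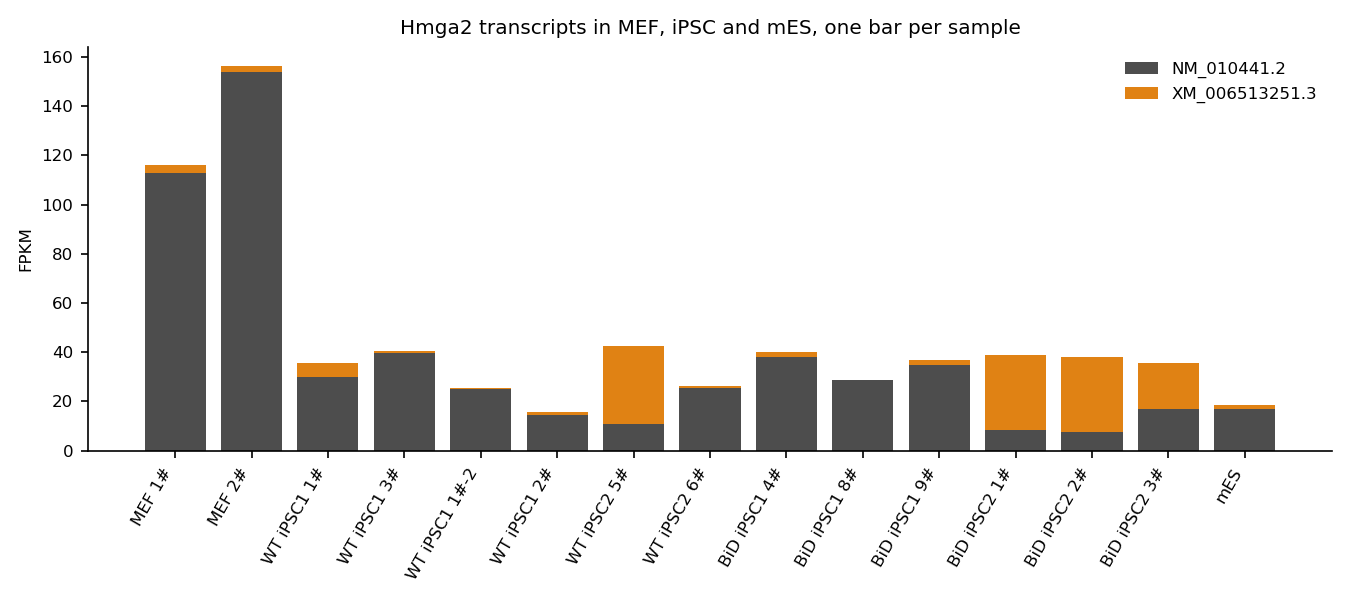
FPKM of the Hmga2 forms in each MEF, iPSC and mES sample, stacked, with NM_010441.2 in grey and XM_006513251.3 in orange. BiD and WT stand for NanogBiD and NanogWT. The orange form makes up over 50% of the bar in 4 of the 5 iPSC2 samples and in no other sample.

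Genes of microRNA processing in general and partners of Lin28 were taken as a list of 18, all of them tested. At D7, 2 of the 18 were higher with NanogBiD and none lower, and 6 were higher and none lower at D10, when 10.4% and 27.8% of all genes were called. Msi1, an RNA-binding protein that works with Lin28, was at 9.84 ± 0.753 FPKM (SD, n = 2) with NanogBiD and 2.37 ± 0.0094 with NanogWT at D7, a log2 difference of 1.68 (SE 0.38, adjusted p = 0.00206). Hnrnpa1, which binds let-7a and mir-18a precursors, differed by 1.26 (SE 0.25, adjusted p = 0.000843) at D7 and 1.89 (SE 0.25) at D10. Tut4, the uridylating enzyme that Lin28a recruits, was at 18.6 ± 0.872 against 6.65 ± 0.779 FPKM at D10 (1.36, SE 0.20, adjusted p = 1.2e-05). Drosha, Dis3l2 and Khsrp were the others called at D10. The list had a median log2 difference of 0.53 at D7 and 0.70 at D10, against 0.08 and 0.10 over all genes. Its median was already 0.20 at D0, against 0.01 over all genes. For the change from D0, NanogBiD against NanogWT, the list median was 0.27 at D7 and 0.38 at D12. The medians of that change over all genes were 0.07 and 0.14. In iPSC against MEF, 6 of 18 were higher, with Drosha by 1.46 (SE 0.14) and Dhx9 by 1.43 (SE 0.13), and none lower, against 40.7% of all genes called in either direction.

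Other known let-7 targets, a list of 32 of which 31 were tested, split in direction. At D7, 7 were higher with NanogBiD and 2 lower. The counts were 11 and 5 at D10, then 8 and 6 at D12. Over all tested genes 10.4%, 27.8% and 23.4% were called in either direction on these days. The higher genes were led by Mycn, the Myc-family factor of embryonic cells, Nr6a1, a nuclear receptor of the early embryo, and Arid3b. Their log2 differences at D7 were 3.25 (SE 0.44), 2.59 (SE 0.24) and 2.06 (SE 0.25). Nr6a1 was at 11.1 ± 0.0432 FPKM (SD, n = 2) with NanogBiD and 1.02 ± 0.273 with NanogWT at D7, against 0.739 ± 0.0133 in MEF and 13.3 in mES. It has 8 seed matches in its 3′ UTR, the most of the list. The lower genes were Thbs1 and Col1a2 at D7, with Col3a1, Myc and Stard13 besides at D10 and also Ccnd2 at D12. Some genes of the list were called before D7. Col3a1 was lower and Myc higher at D1, against 1.33% of all genes called. At D3, Ccnd1, Thbs1, Col1a2 and Col3a1 were lower, against 3.70%. At D5, Ccnd1, Thbs1 and Col1a2 were lower and Mycn higher, against 6.48%. Thbs1, a secreted matrix protein, differed by -2.40 (SE 0.29) and Col1a2, a fibrillar collagen chain, by -1.31 (SE 0.20) at D7, and Col3a1 by -2.85 (SE 0.23) at D10. The median of the list was 0.41 at D7, 0.52 at D10 and 0.25 at D12, against 0.08, 0.10 and 0.17 over all genes. It was already 0.20 at D0, against 0.01 over all genes. For the change from D0, NanogBiD against NanogWT, the list median was 0.16 at D7 and -0.04 at D12. The medians of that change over all genes were 0.07 and 0.14. Of the 32 genes, 24 held a seed match, with 40 matches in all, and neither Mycn nor Thbs1 held one. In iPSC against MEF, 8 of the 30 tested were higher and 8 lower, against 40.7% of all genes called, while rescaling to a common total gave 8 and 11.

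Mature let-7 was not measured. Of 13 rows for let-7 and related host transcripts in the gene table, 2 were never above 0, and Mirlet7f-2 alone reached 1 FPKM in all 34 libraries, between 4.07 and 34.5 FPKM. Reads of long messages can fall in such short features, and Mirlet7f-2 lies inside Huwe1, so these rows do not give the level of the mature RNA.

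Across the 34 columns of the gene table, the members' profiles resembled one another to different degrees. On the log2 scale Pearson r was 0.90 between Trim71 and Igf2bp1, 0.88 between Lin28a and Trim71 and between Igf2bp2 and Igf2bp3, and 0.86 between Lin28a and Lin28b. Hmga2 had r of -0.35 with Lin28a and -0.46 with Trim71. The tested genes most like Lin28a were Igdcc3 (r = 0.97), Tnfrsf19 (0.97) and Prtg (0.96), and Prtg was also among those of Lin28b (0.90), after Rbm12 (0.91). Those most like Trim71 were Cdh1 (0.99), Esrrb (0.99) and Trim6 (0.99), those most like Igf2bp1 were Cad, Mcm7 and Ipo5 (0.96, 0.96 and 0.95), and those most like Hmga2 were Gcnt4 (0.91), Tmf1 (0.87) and Tes (0.86). Hmmr led for Igf2bp2 (0.94) and Tcp1 for Igf2bp3 (0.92). The columns share time points and mES, so these values describe the table and were not tested.

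Promoters of Lin28a, the earliest member, and Hmga1 are shown for the letters they hold, from RefSeq on GRCm38.p6, with 250 bases before to 50 after the start. Matches on either strand to an octamer (ATGCAAAT, in 1.74% of 32851 promoters), a Sox word (ACAATG, 12.6%), a GC box (GGGCGG, 35.7%) and a TATA word (TATAAA, 13.6%) are in capitals.
Lin28a, chr4:134018767-134019066 (minus strand): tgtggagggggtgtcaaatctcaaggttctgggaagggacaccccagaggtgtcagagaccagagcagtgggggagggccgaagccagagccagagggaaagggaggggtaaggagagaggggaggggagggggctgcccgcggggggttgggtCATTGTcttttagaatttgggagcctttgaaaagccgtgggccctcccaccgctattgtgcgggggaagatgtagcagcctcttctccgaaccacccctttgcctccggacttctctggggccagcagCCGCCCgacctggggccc
Hmga1, chr17:27556324-27556623 (plus strand): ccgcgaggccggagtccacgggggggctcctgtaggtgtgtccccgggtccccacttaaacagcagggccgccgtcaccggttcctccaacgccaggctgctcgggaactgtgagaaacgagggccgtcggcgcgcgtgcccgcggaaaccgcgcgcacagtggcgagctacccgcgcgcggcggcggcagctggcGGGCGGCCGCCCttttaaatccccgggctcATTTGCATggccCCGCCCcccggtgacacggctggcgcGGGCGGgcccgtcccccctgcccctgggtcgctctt
The Lin28a stretch has 1 Sox word and 1 GC box, and the Hmga1 stretch has 1 octamer and 4 GC boxes. No TATA word was found in the stretches of the 7 members that have an entry. Among these 7, only Lin28a held a Sox word and only Hmga1 held an octamer. The stretches of Lin28b, Trim71, Hmga2, Igf2bp2 and Igf2bp3 held neither word. The stretches shown therefore do not describe the axis as a whole. A match is not a site of binding.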

How the data were processed

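RNA-seq libraries of reprogramming cells, MEF, iPSC and mES were analysed from values deposited by the authors. According to the methods of the study, reads were trimmed by the authors with Trim Galore 0.6.4 and aligned to mm10 with HISAT2 2.2.1, and FPKM per gene and per transcript were obtained by the authors with StringTie 2.2.1; the annotation and the use of strand are not given in the sources used here. The tables were normalised separately. FPKM are not counts, so no count model was used.

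Values were analysed as log2(FPKM + 1). Genes that reached 1 FPKM in 2 or more samples were tested with limma 3.58.1 under R 4.3.3 (empirical Bayes moderation with a mean-variance trend), with a mean per combination and day (16 groups, 31 libraries) or, for iPSC, per combination and line plus MEF (5 groups). Tests were two-sided, with Benjamini-Hochberg adjustment over all genes tested, and were checked on simulated data. A call needed an adjusted p under 0.05 and a 2-fold difference. D8 and mES were described without a test. Relative depth came from the commonest ratio of low values between libraries. As alternatives, the pseudocount was set to 0.1, the filter or the fold limit was dropped, values were rescaled to a common total (TPM) or quantile normalised, only the compared groups were fitted, the replicate number was used as a block, and each library was left out in turn. Members and lists were chosen with earlier results of these data known. From the lists, up to 3 called genes with the largest and up to 3 with the smallest difference were named per comparison, and for each member the 3 genes of highest r. Python 3.11.15, numpy 2.4.6, pandas 2.3.3 and matplotlib 3.10.9 were used. Seed and motif matches were exact. A withheld item is not reported here.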

Additional observations from a re-analysis of the deposited data

Results flagged for a closer look

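The change from D0 differed between the combinations, by the interaction term of the limma fit, in 7 of 8 genes at D7 and 6 of 8 at D12. On the log2(FPKM + 1) scale, NanogBiD minus NanogWT, the D7 values were 4.80 for Lin28a, 1.66 for Lin28b, 1.88 for Trim71, 1.67 for Hmga1, 1.30 for Hmga2, 2.57 for Igf2bp1 and 1.13 for Igf2bp3. The D12 values were 2.41 for Lin28a, 2.83 for Trim71, 2.62 for Hmga1, 2.29 for Igf2bp1, 1.37 for Igf2bp2 and 1.22 for Igf2bp3. At D12 the NanogWT libraries were estimated at 2.05 and 3.18 in relative depth and the NanogBiD libraries at 0.811 and 0.896. The NanogWT estimates are the less certain, and the part of depth in these values was not tested.

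Among the iPSC, a single sample stood far from the others of its combination in 2 cases. Lin28b was at 5.10 FPKM in NanogWT iPSC1 2#, with a gap to the nearest sample of 0.733 of the range of the 6 samples. Hmga2 was at 28.7 FPKM in NanogBiD iPSC1 8#, with a gap of 0.626 of the range. In all, 16 sets of 6 samples were checked, and chance marks about 1 in 20 such sets.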

How the results depend on the processing

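No called difference of the 8 genes changed sign under any alternative. Of 1512 recomputed differences, 1442 kept their side of the threshold, 37 lost a call and 33 gained one. Without a fold limit, D3 gave 1 called gene (Igf2bp3), D7 gave 8 in place of 6, D12 gave 8 in place of 7, and D7 against D0 gave 5 with NanogBiD and 5 with NanogWT in place of 3 each. A fit to the compared groups alone gave 4 in place of 7 for the interaction at D7, and a common total gave 3 in place of 5 for D12 against D0 with NanogWT. Leaving out each library gave 0 to 1 at D0 (1 without NanogWT D0 replicate 2), 0 at D1 and D3, 1 at D5, 6 to 7 at D7, 8 at D10, 6 to 8 at D12, 3 to 4 for D7 against D0 with either combination, 5 to 7 for the interaction at D7, 5 to 6 for D12 against D0 with NanogBiD, 3 to 5 with NanogWT, 6 to 7 for the interaction at D12, 5 to 7 for iPSC against MEF, and 0 between the iPSC.

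Same-numbered libraries of the combinations deviated together with r of -0.06 to 0.39 by day, over 0.1 on 4 of 7 days, and were not treated as pairs because it was not over 0.1 on every day. With the replicate number as a block, 6 of 8 genes were called at D7 and 8 at D10, and no count changed. For iPSC no fit with the sample number as a block was made, and within a line the combinations share no number.

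Differences of genes near 0 depend on the pseudocount: with 0.1, Trim71 differed by 4.33 at D7 in place of 1.85, and Lin28b by 4.16 in place of 1.97. Depth was known only as ratios, so no detection floor is given, and a value listed at 0 is not shown to be absent. With 2 libraries per group, small differences could not be shown.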

Other observations

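Neural markers (Sox1, Pax6, Nes and Tubb3) summed to 223 to 369 FPKM with NanogBiD at D3 and 348 to 370.1 at D5, against 64.6 to 94.9 and 70.9 to 90.8 with NanogWT. The sums were 160 to 229 against 93.9 to 113 at D7 and 387 to 558 against 269 to 326 at D12, with 51.8 to 86.8 in MEF and 39.1 in mES. Summed trophoblast markers were at 25.2 to 33.8 and 3.09 to 4.94 FPKM at D12, against 27.7 in mES, and primitive endoderm markers were at or under 1.85 in all 4 libraries. These sums are values with no test.

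At D8, where NanogBiD has 1 library and no test was made, the 8 genes stood at 30.8 (Lin28a), 3.36 (Lin28b), 8.04 (Trim71), 268 (Hmga1), 50.2 (Hmga2), 24.9 (Igf2bp1), 47.3 (Igf2bp2) and 21.4 FPKM (Igf2bp3) with NanogBiD. NanogWT means were 0.443, 0.132, 0.273, 68.7, 9.71, 2.27, 20.8 and 8.33 in the same order. Between D7 and D8 the Hmga2 mean with NanogWT went from 39.6 to 9.71 FPKM.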
